A study of Homo sapiens with 16 samples.

Results

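The EGF receptor family and its ligands were followed among the H3K27ac regions that differ between LX-2 cells treated with an inhibitor of O-GlcNAc transferase and control cells. The 10 genes, chosen by name, were the 4 receptors EGFR, ERBB2, ERBB3 and ERBB4 and the 6 ligands HBEGF, AREG, EREG, TGFA, BTC and NRG1. A region was given to a gene when any of its bases lay in the gene body or within 100 kb of the gene's 5′ end. By this rule the 10 genes held 9 distinct regions of the 7130 listed ones. Of these 9, 7 had gained H3K27ac upon treatment and 2 had lost it.

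LX-2 is an established human hepatic stellate cell line that has the traits of a myofibroblast, the collagen-secreting cell of the fibrotic liver. Control cells received the vehicle DMSO, and the treated cells received 50 µM OSMI-1 for 24 h. OSMI-1, named OGTi in what follows, blocks OGT, the enzyme by which proteins are O-GlcNAcylated. ChIP-seq of H3K27ac, an acetylation of histone H3 found at active promoters and enhancers, gave 8 of the 16 libraries, with 4 in each arm, and the other 8 libraries were input DNA or chromatin enriched for accessibility. All libraries came from the same cell line, so that the replicates are cultures and not donors. The data used here were 2 lists of positions, one of 3507 regions with lower H3K27ac under OGTi (lost) and one of 3623 regions with higher H3K27ac (gained). The lists give neither a level, a fold change nor a value per library, so that the size of each change, its spread over cultures and the depth behind it are unknown, and no test over samples was possible for any gene below. A gene with no listed region may have had no H3K27ac, unchanged H3K27ac or a change that did not pass the threshold.

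The receptors of this family are tyrosine kinases of the cell surface that act as pairs. EGFR binds EGF and related ligands, ERBB3 and ERBB4 bind neuregulins, and ERBB2 has no known ligand of its own and serves as a partner of the others. The ligands are made as membrane-bound precursors that are cut loose by surface proteases, and the bound receptors signal through the RAS-MAPK and PI3K-AKT cascades. In the liver, EGFR signalling is known for its part in regeneration, and stellate cells are among the cells that respond to it.

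Receptors held most of the regions. The 4 receptors had 6 gained regions and 1 lost region, and the 6 ligands had 1 of each. Of the 10 genes, 5 had a gained region, namely EGFR, ERBB2, ERBB4, AREG and EREG, and 2 had a lost region, namely ERBB3 and NRG1. Among the 19970 protein-coding genes of the autosomes and the X chromosome, the same rule found a gained region for 30.6% and a lost region for 21.6%, and 55% had neither. HBEGF, TGFA and BTC had neither. No member had both kinds, which 7.23% of all protein-coding genes had.

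**Figure D1:**
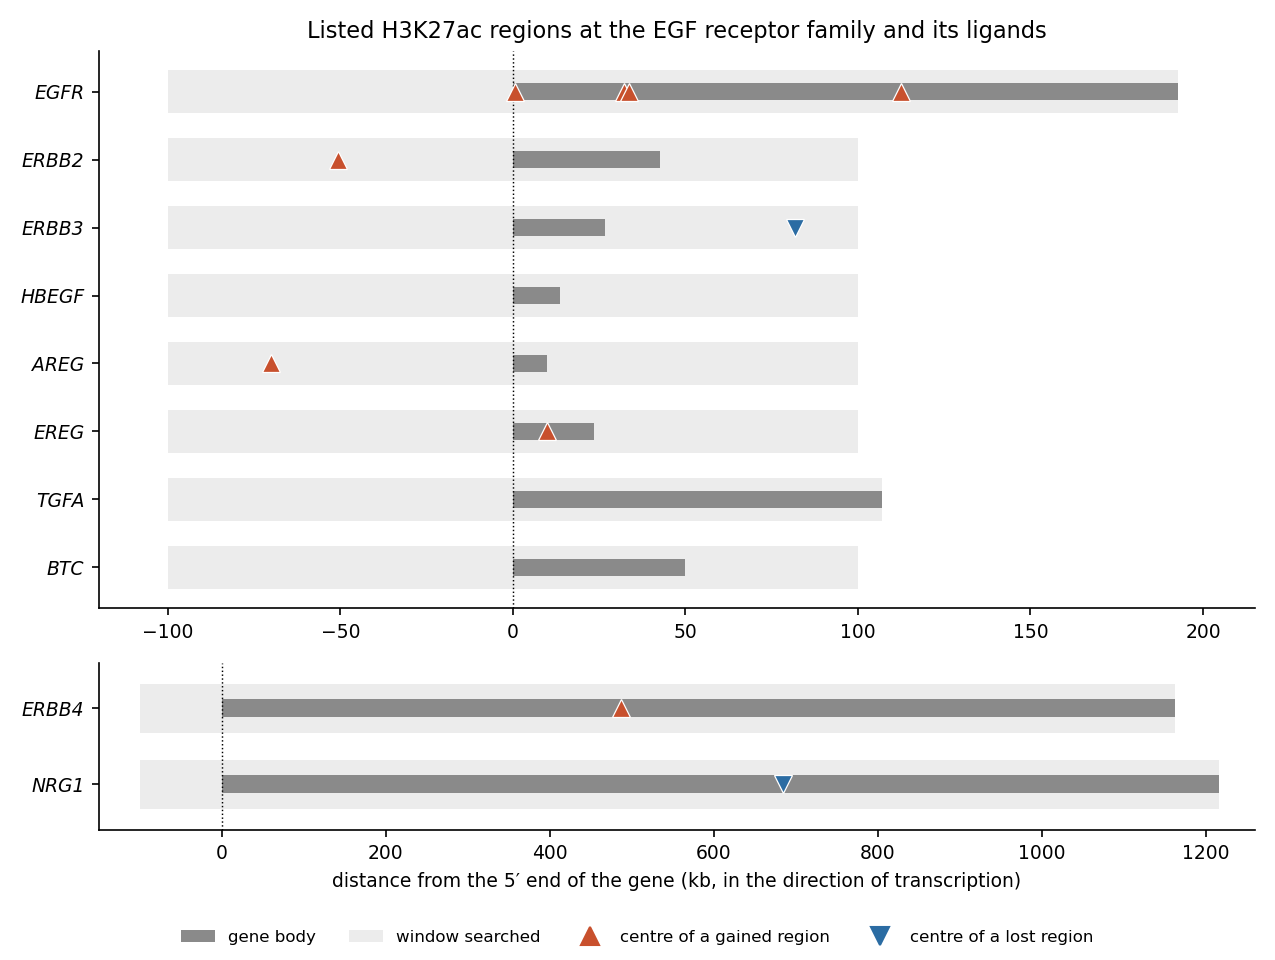
Listed H3K27ac regions at the 4 receptors and 6 ligands, by distance from the 5′ end of each gene in kb along the direction of transcription. Dark bars are gene bodies, pale bars the windows searched, upward triangles the centres of gained regions and downward triangles those of lost regions, with ERBB4 and NRG1 on a longer scale. EGFR carries 4 gained regions that overlap its body, the gained region of EREG is drawn again for AREG, and the lost regions of ERBB3 and NRG1 lie far from the 5′ ends.

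EGFR, the receptor of EGF, TGFA and AREG, held 4 of the 7 gained regions and no lost one. The gene lies at chr7:55019017-55211628 of hg38 on the plus strand and spans 193 kb. The first region, chr7:55018367-55020585, was 2219 bp wide and reached from 650 bp upstream of the 5′ end to 1568 bp downstream of it. It therefore covered exon 1 of the representative (MANE Select) transcript, with 261 bases of 5′ untranslated and 88 bases of coding sequence. EGFR was the 1 member of 10 with a gained region within 2.5 kb of its 5′ end, a position found for 6.41% of protein-coding genes, and no member had a lost region there, which 1.96% of protein-coding genes had.

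The other 3 regions of EGFR all lay in intron 1 of its 28-exon transcript and touched no exon of any annotated transcript. A region of 1060 bp at chr7:55050594-55051653 directly adjoined one of 2000 bp at chr7:55051654-55053653, with centres 32.1 kb and 33.6 kb downstream of the 5′ end. The last region, chr7:55130366-55132365, was also 2000 bp wide and was centred 112 kb downstream, before exon 2, which begins at 123 kb. Since wide peaks were cut into bins before the study's comparison, the adjoining regions may be bins of one peak, and they count as 1 when regions within 1 kb are merged. The closest lost region on the chromosome was 7222 kb upstream, nearest to PKD1L1.

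EGFR had 13.7 listed regions per Mb of its 293 kb window, beside 3.09 over the windows of all protein-coding genes. At least 4 gained and no lost regions were found for 1.31% of all protein-coding genes, and for 1.72% of the 1566 genes whose window was within 1.25 times that of EGFR. Of these 1566 genes, 27.9% had any gained region.

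The sequence at the EGFR start and in intron 1 differed in kind. The region over the 5′ end had a GC content of 69.4% and a CpG observed/expected ratio of 0.864, beside medians of 46.1% and 0.247 over all gained regions. The 3 intronic regions had GC contents of 47.7% to 50.6% and CpG ratios of 0.104 to 0.307. Consensus motifs were searched on both strands: CATTCC for the TEAD core, TGANTCA for AP-1, TGATGCAA for ATF4 paired with C/EBP, GGGCGG for SP/KLF factors, TGTGGT for RUNX factors, and the SRF CArG box. Each motif was counted by itself, also where matches of different motifs overlap, except in the stretches of 300 bases given here, where overlapping matches count once. The region at the 5′ end held 14 SP/KLF matches and none of the other motifs. The intronic regions together held 4 TEAD core, 5 AP-1, 1 ATF4-C/EBP, 2 SP/KLF and 5 RUNX matches.

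The promoter and the motif-rich part of intron 1 are printed to show this difference. The first sequence is the 250 bases before the EGFR start (RefSeq, GRCh38.p14, chr7:55018767-55019016, plus strand), which lie inside the gained region and are the same in hg38. Capitals mark its 2 SP/KLF matches, both in the reverse orientation. The second is the stretch of 300 bases with the most TEAD core, AP-1 and ATF4-C/EBP matches in the region centred at 33.6 kb (hg38, chr7:55052605-55052904, plus strand). Capitals mark, in order, a TEAD core, the ATF4-C/EBP, a second TEAD core and an AP-1 match.
EGFR promoter: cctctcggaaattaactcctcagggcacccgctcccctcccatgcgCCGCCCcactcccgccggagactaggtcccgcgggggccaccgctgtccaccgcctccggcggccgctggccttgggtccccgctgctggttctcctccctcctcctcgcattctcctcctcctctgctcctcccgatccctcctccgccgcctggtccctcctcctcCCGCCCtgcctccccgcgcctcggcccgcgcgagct
EGFR intron 1: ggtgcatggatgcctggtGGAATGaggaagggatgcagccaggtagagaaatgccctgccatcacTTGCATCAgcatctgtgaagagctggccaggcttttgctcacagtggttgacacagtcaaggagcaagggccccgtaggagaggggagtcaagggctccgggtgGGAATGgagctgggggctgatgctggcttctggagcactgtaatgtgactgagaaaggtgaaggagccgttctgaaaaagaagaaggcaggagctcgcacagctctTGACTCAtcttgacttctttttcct

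The EGFR promoter sequence had a GC content of 73.6% and a CpG ratio of 0.881. SP/KLF matches occurred in the 250 bases before the start of 42.6% of the 35116 promoters in the RefSeq table. No TEAD core, AP-1, ATF4-C/EBP, RUNX or CArG match lay in these 250 bases, where the shares of promoters with a match were 11.9%, 6.57%, 0.772%, 11% and 1.16%. In the stretch of intron 1, the 4 matches began at bases 19, 66, 170 and 276. At least 4 such matches within 300 bases were found in 2.88% of the 1492 gained regions and 1.96% of the 1582 lost regions whose width was within 1.25 times that of the EGFR region. The stretch was singled out after its matches were seen, and a match says nothing of whether the factor is bound.

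**Figure D2:**
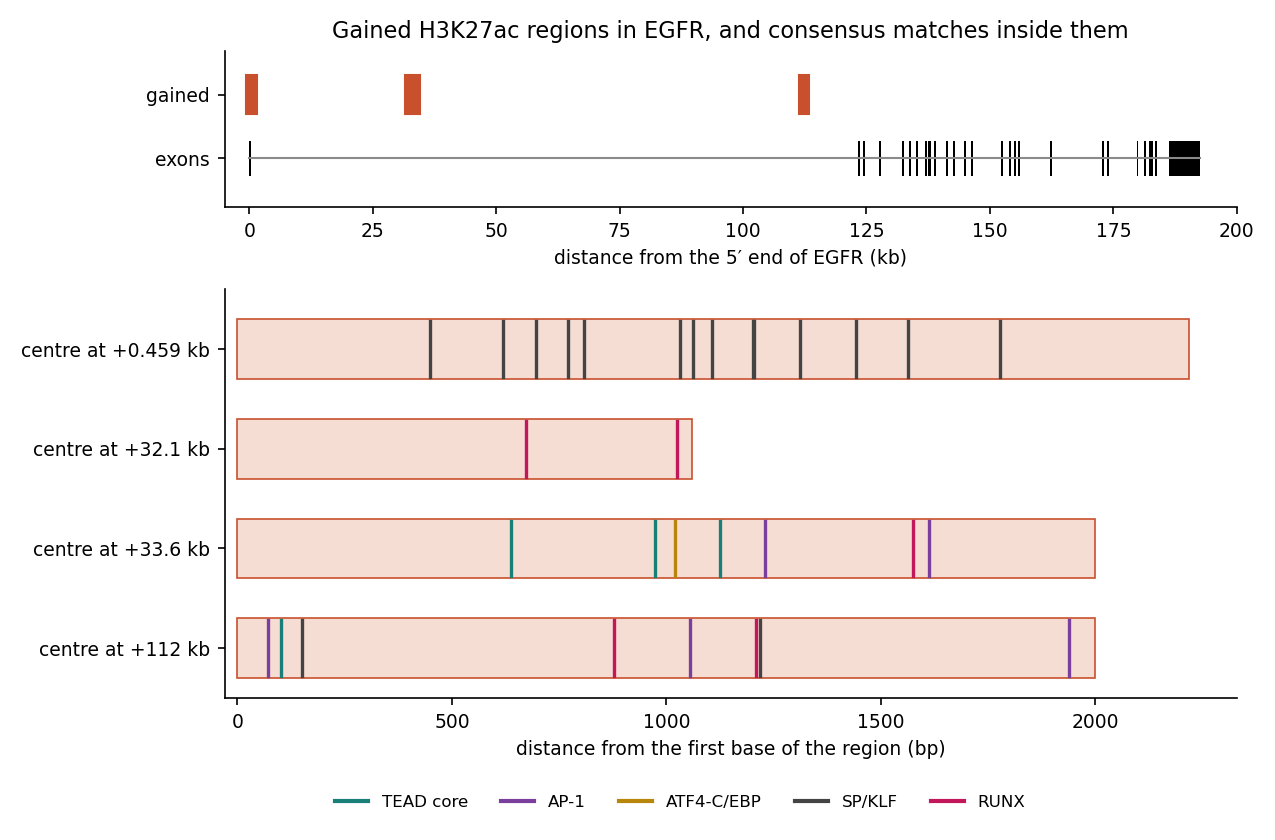
Gained H3K27ac regions in EGFR. The upper panel gives the exons of the representative transcript (black) and the 4 gained regions (orange) by distance from the 5′ end in kb, and the lower panel gives each region from its first base in bp, with a coloured line for each consensus match. SP/KLF matches fill the region at the 5′ end, which has 14 of them, and the TEAD core, AP-1 and ATF4-C/EBP matches lie in the intronic regions centred at 33.6 and 112 kb.

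ERBB4, a neuregulin receptor, had 1 gained region in 1163 kb of gene body, or 0.792 regions per Mb of its window. The gene lies at chr2:211375717-212538841 on the minus strand. The region, chr2:212051925-212052381, was 457 bp wide, narrower than all but 6.59% of the listed regions, and was centred 487 kb downstream of the 5′ end in intron 2, with no exon of any transcript in it. No other annotated gene started within 273652 bp of it. The nearest lost region was 302 kb upstream of the 5′ end. The ERBB4 region contained no CpG dinucleotide, and its CpG ratio was thus 0.

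ERBB2, the receptor without a known ligand, had 1 gained region in its window and none in its body. ERBB2 lies at chr17:39687914-39730426 on the plus strand. The region, chr17:39636745-39637631, was 887 bp wide and was centred at -50.7 kb from the gene's 5′ end, that is, upstream of it. It lay over the 5′ end and exon 1 of STARD3, a gene of cholesterol transport at late endosomes, and had a GC content of 64.8%, a CpG ratio of 0.745 and 6 SP/KLF matches. By position this region is thus at the start of STARD3, and whether it acts on ERBB2 was not tested. The nearest lost region was 625 kb downstream of the ERBB2 start, near RARA.

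ERBB3, which binds neuregulins and has little kinase activity, was the 1 receptor with a lost region. The gene lies at chr12:56076799-56103505 on the plus strand. The region, chr12:56157331-56159804, was 2474 bp wide and was centred 81.8 kb downstream of the 5′ end, beyond the 3′ end of the gene. It covered the 5′ end and exons 1 to 3 of MYL6, which encodes a myosin light chain, together with exons 6 to 8 of MYL6B and the 5′ end of the antisense transcript MYL6B-AS1. It held 7 SP/KLF matches, 1 CArG match and 1 RUNX match, with a GC content of 55.5% and a CpG ratio of 0.401. The nearest gained region of ERBB3 was 148 kb upstream, near DGKA.

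EREG and AREG, the ligands epiregulin and amphiregulin, are neighbours on chromosome 4 and shared a single gained region. EREG lies at chr4:74365145-74388749 and AREG at chr4:74445136-74455005, both on the plus strand. The region, chr4:74373891-74376390, was 2500 bp wide and lay in intron 1 of EREG, centred 9.99 kb downstream of the EREG start and 70 kb upstream of the AREG start. It fell in the window of EPGN, which encodes the ligand epigen, as well. It is therefore counted once among the ligands, and it cannot be given to one of these genes from its position. Its GC content was 41% and its CpG ratio 0.38. It held 3 TEAD core, 3 AP-1 and 1 RUNX matches. The stretch of 300 bases with the most TEAD core, AP-1 and ATF4-C/EBP matches (hg38, chr4:74374633-74374932, plus strand) is printed beside that of EGFR for comparison. Capitals mark 2 AP-1 matches, at bases 121 and 153, between 2 TEAD core matches, at bases 50 and 247.
EREG intron 1: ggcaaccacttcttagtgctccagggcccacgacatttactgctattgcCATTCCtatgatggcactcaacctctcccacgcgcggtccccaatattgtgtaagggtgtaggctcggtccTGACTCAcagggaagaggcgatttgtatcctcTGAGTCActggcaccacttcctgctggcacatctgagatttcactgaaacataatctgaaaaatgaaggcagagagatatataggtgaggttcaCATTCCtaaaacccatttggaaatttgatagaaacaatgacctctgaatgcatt

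As many matches within 300 bases were found in 4.09% of the 1272 gained and 2.46% of the 1507 lost regions of similar width. Both printed stretches of EGFR and EREG thus held 4 matches, of which 2 were TEAD cores. The EGFR region centred at 112 kb, in contrast, had at most 2 such matches within 300 bases, as many as were found in 46.6% of the gained and 53.2% of the lost regions of similar width, and the EGFR region centred at 32.1 kb had none. No stretch was taken from the regions in ERBB4 and NRG1. The whole ERBB4 region held 1 TEAD core and 1 AP-1 match, and that of NRG1 1 TEAD core and 3 AP-1 matches.

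Apart from NRG1, the other ligands had no listed region. HBEGF, the heparin-binding ligand, lies at chr5:140332843-140346603 on the minus strand, and its nearest regions were a gained one at 155 kb, near CYSTM1, and a lost one at 648 kb, near CXXC5. TGFA (chr2:70447284-70554193, minus strand), which encodes TGF-alpha, had its nearest gained region at 411 kb, near PCBP1, and its nearest lost region at 1268 kb, near CYP26B1. BTC (chr4:74744759-74794523, minus strand), which encodes betacellulin, had a gained region 132 kb downstream of its 5′ end, beyond the gene body and the 100 kb window. The protein-coding 5′ end nearest to that region was that of BTC. The nearest lost region of BTC was 1048 kb away.

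NRG1, which encodes neuregulin 1, a ligand of ERBB3 and ERBB4, was the 1 ligand with a lost region. The gene lies at chr8:31639222-32855666 on the plus strand and spans 1216 kb, and its transcripts start at 32 different sites. The lost region, chr8:32322477-32324726, was 2250 bp wide and was centred 684 kb downstream of the gene's 5′ end. Of 35 annotated transcripts, 9 span it, and it touched no exon. The 5′ end of the representative transcript lay further downstream, 224710 bp from the centre of the region. The region had a GC content of 41.1% and a CpG ratio of 0.137, beside medians of 46.8% and 0.202 over all lost regions, and it held 3 AP-1, 3 RUNX, 1 TEAD core and 1 SP/KLF matches. The nearest gained region was 1391 kb upstream of the gene's 5′ end. NRG1 and ERBB4 are both very long genes, with 0.76 and 0.792 listed regions per Mb of window.

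**Figure D3:**
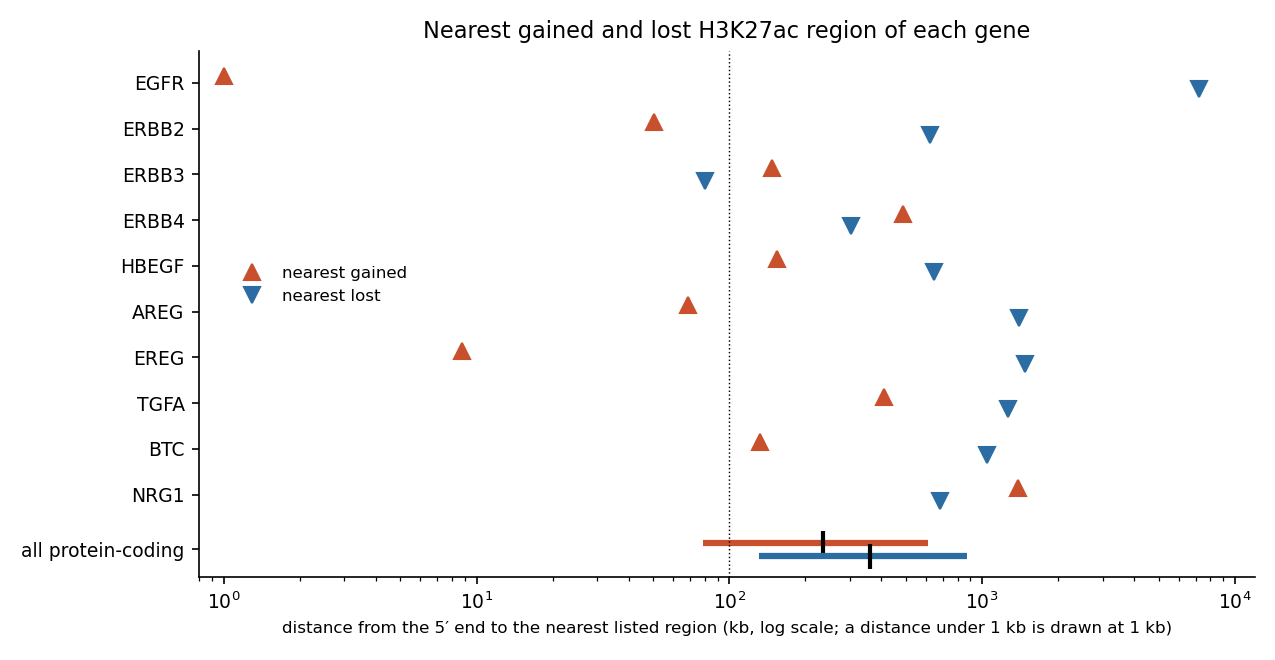
Distance in kb, on a log scale, from the 5′ end of each member to its nearest gained (upward triangle) and nearest lost (downward triangle) region. The dotted line is at 100 kb, and the bars at the bottom give the quartiles over all protein-coding genes with the median as a black line. The gained region was the nearer one for 7 of the 10 genes, and ERBB3, ERBB4 and NRG1 were the exceptions. The same count was not made over all protein-coding genes, whose median distances were also shorter for gained (235 kb) than for lost regions (360 kb).

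The 5′ ends of protein-coding genes had their nearest gained region at a median of 235 kb (quartiles 78.6 and 609) and their nearest lost region at a median of 360 kb (quartiles 131 and 874). For lost regions, EGFR, AREG, EREG, TGFA and BTC lay beyond the upper quartile, and ERBB3 alone below the lower one. For gained regions, EGFR, ERBB2, AREG and EREG lay below the lower quartile, and NRG1 alone above the upper one. The genes AREG, EREG and BTC share their nearest lost region, near PPEF2, so that they do not count as separate observations. AREG and EREG share their nearest gained region as well.

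To contrast receptors with ligands, the share of lost regions was compared. It was 14.3% of the 7 receptor regions (Wilson 95% interval 2.57% to 51.3%) and 50% of the 2 ligand regions (9.45% to 90.5%), a difference of -35.7 percentage points (Newcombe 95% interval -77.9 to 19.2). The intervals cover counting error only and treat adjoining regions as separate. Regions of the same locus are not replicates, so that these intervals describe the counts and are no test over samples. The interval of the difference includes 0, the regions are few, and the difference turned to 14.3 points without NRG1. Per Mb of window, the receptors had 3.07 gained and 0.511 lost regions in 1.96 Mb, the ligands 0.454 of each in 2.2 Mb, and all protein-coding genes 1.66 and 1.43. Without EGFR the receptors had 2 gained regions and 1 lost region, so that most of the receptors' gained regions are those of EGFR.

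Across the 7 gained regions of the family, a TEAD core match in the central 1000 bp was present in 4 (57.1%), beside 45.8% of all gained regions. An AP-1 match was present in 4 (57.1%, beside 46.7%), an SP/KLF match in 3 (42.9%, beside 38%) and a RUNX match in 3 (42.9%, beside 46.9%). For ATF4-C/EBP the count was 1 (14.3%, beside 8.17%) and for the CArG box 0, beside 4.36%. The ERBB2 and ERBB4 regions are narrower than the stretch searched, and both RUNX matches of ERBB4 lie outside the region itself. With 7 regions, 1 region moves each share by 14.3 percentage points, and none of these shares differed from that of all gained regions by more than this. Over the 2 lost regions, that of NRG1 had AP-1 and SP/KLF matches in its centre and that of ERBB3 an SP/KLF match.

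Among the other genes of the pathway, 56 genes in 6 lists were examined by the same rule. A gained region was found for 29 of the 56 (51.8%, beside 30.6% of all protein-coding genes). A lost region was found for 13 (23.2%, beside 21.6%), and 21 had neither (37.5%, beside 55%). A gained region within 2.5 kb of the 5′ end was found for 12 genes (21.4%, beside 6.41%) and a lost one for 1 (1.79%, beside 1.96%). Since a region can fall in the windows of several genes, and since the lists were chosen with earlier results of these data known, these counts are descriptions beside the shares of all protein-coding genes given above. Those shares also count any genes without H3K27ac in these cells, which could not be listed. How many such genes there are, in the pathway lists or among all genes, is unknown here. The median number of lost regions per gene was 0 in each list, as over all protein-coding genes, and the median number of gained regions was 1 for the feedback inhibitors, 3 for the growth factor induced genes and 0 for the other lists and for all protein-coding genes.

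Upstream of the receptors, EGF itself had 1 gained and 1 lost region, EPGN had the region shared with EREG and AREG, and NRG2, NRG3 and NRG4 had none. Of the 4 genes that control ligand shedding, 1 had a gained region and 1 a lost one. Each is 25%, beside 30.6% and 21.6% of all protein-coding genes. RHBDF1, which encodes an inactive rhomboid protein needed for the maturation of the protease ADAM17, had 3 gained regions, of which 2 lay within 2.5 kb of its 5′ end. ADAM17 itself had 1 lost region in its window and none at its 5′ end.

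Of the 14 adaptors and members of the RAS-MAPK cascade, 6 had a gained region and 3 a lost one. These are 42.9% and 21.4%, beside 30.6% and 21.6% of all protein-coding genes. SHC1, an adaptor of the phosphorylated receptors, and NRAS, a RAS GTPase, each had 2 gained regions, with 1 of them at the 5′ end. Of 10 genes, those of the PI3K-AKT branch with PLCG1, STAT3 and SRC, 4 had a gained (40%) and 3 a lost region (30%).

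The feedback inhibitors of receptor signalling had 17 gained and 3 lost regions over 14 genes. Counted in the same way, the 19970 protein-coding genes had 9753 and 7647. Of the 14 inhibitors, 9 had a gained region (64.3%, beside 30.6% of all protein-coding genes) and 2 a lost one (14.3%, beside 21.6%). A gained region lay at the 5′ end of 5 inhibitors, which is 35.7% of the list, beside 6.41% of all protein-coding genes. SPRY2 and SPRY4, which encode Sprouty inhibitors of the RAS-MAPK cascade, had 2 and 4 gained regions, each with 2 at the 5′ end, and SPRED1, a relative of them, had 1 at its 5′ end. DUSP5 and DUSP6, phosphatases of ERK, had 4 and 2 gained regions, of which 1 and 2 lay at the 5′ end. These 5 genes, named for a region at the 5′ end, had no lost region. The same held for 4664 of the 6108 protein-coding genes with a gained region. The lost regions of the list were those of LRIG1, a membrane protein that restrains the receptors, with 2 lost and no gained regions, and of ERRFI1, an inhibitor of the EGFR kinase, with 1 lost and 1 gained region.

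Genes that growth factors induce had 27 gained and 3 lost regions over 9 genes, and 7 of the 9 had a gained region. A gained region was thus found for 77.8% and a lost one for 33.3%, beside 30.6% and 21.6% of all protein-coding genes. PHLDA1, a pleckstrin homology protein of the early response, had 9 gained regions, all in 1 run, that is, with neighbouring centres within 50 kb, and 3 of them at the 5′ end. FOSL1, an AP-1 subunit, had 6 gained regions, also in 1 run, with 1 at the 5′ end. MYC had 4 gained regions, 3 of them at the 5′ end, and 1 lost region elsewhere in its window. JUN and IER3 each had 3 gained regions and none at the 5′ end. EGR1, a zinc finger factor of the immediate early response, had a lost region at its 5′ end and a gained one elsewhere. The PHLDA1 regions alone are 9 of the 27, so that the sum rests on few loci.

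**Figure D4:**
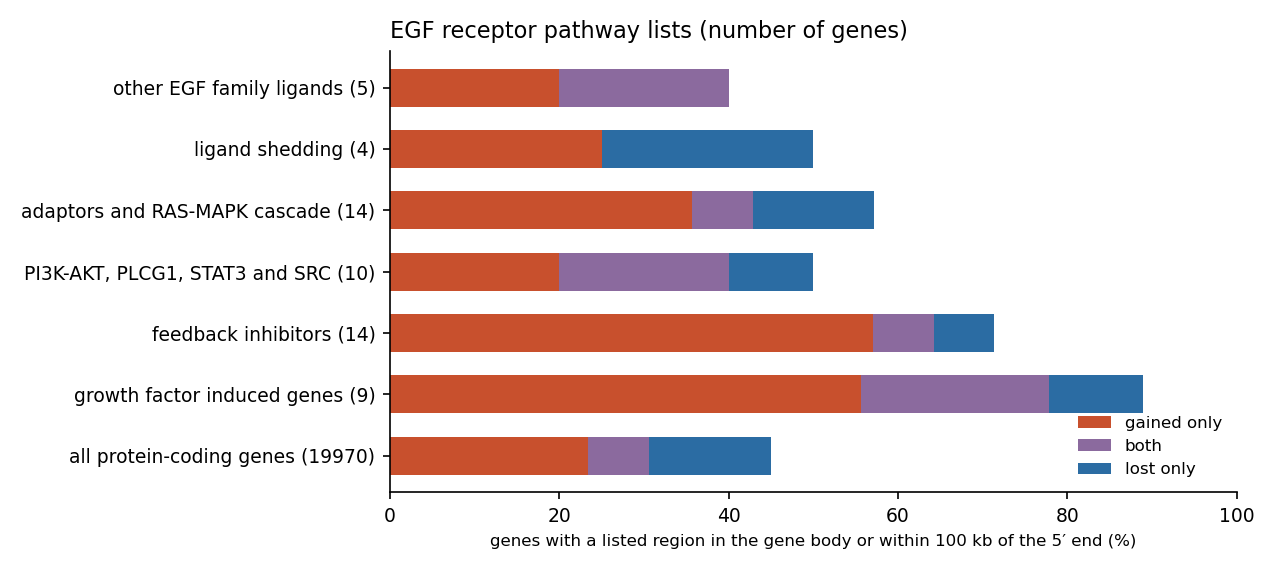
Share of genes (%) in each pathway list with gained regions only, lost regions only or both, in the gene body or within 100 kb of the 5′ end, with the number of genes in brackets. All 19970 protein-coding genes are at the bottom, where 23.4% had gained regions only, 14.4% lost regions only and 7.23% both. Growth factor induced genes and feedback inhibitors have the longest bars, at 8 of 9 and 10 of 14 genes.

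The lists cannot be used to check the labelled cell type, since they hold no level. A region of either kind was listed for 8 of 10 stellate cell and myofibroblast, 1 of 5 hepatocyte, 4 of 5 epithelial, 3 of 4 endothelial and 3 of 5 leukocyte markers, whereas 55% of all protein-coding genes had none. A lost region was listed for 7, 0, 3, 2 and 2 of them in the same order, beside 21.6% of all protein-coding genes.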

How the data were processed

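H3K27ac ChIP-seq of LX-2 cells (4 control and 4 OGTi libraries) was analysed from deposited positions. The authors aligned reads to hg38 with Chromap, called peaks per library against input DNA with MACS2 (version 2.1.1.20160309 in the submitters' processing notes), and compared all 8 libraries with MAnorm2 after cutting wide peaks into bins. The 2 deposited lists have 3 columns and no signal, fold or p-value column. The adjusted p threshold in their names, 0.15, is looser than that of the methods text. Starts were converted to count from 1. All chromosome names were found in hg38, and no region passed a chromosome end.

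Genes came from GENCODE release 44, whereas the study used an earlier release. Overlaps were computed in Python 3.11.15 and checked on planted regions. Sequences were read with pysam 0.24.0, and of the 10 members 8 had an entry in the RefSeq promoter table, ERBB3 and NRG1 having none. The members, lists, motifs and alternatives were chosen with earlier results of these data known. Named pathway genes are those with a listed region within 2.5 kb of the 5′ end or at least 3 listed regions. EGF, EPGN, NRG2, NRG3, NRG4, ADAM17, LRIG1 and ERRFI1 fall outside this rule and were named after their values were seen. Some items that it selects are not reported here. Other libraries were not used here.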

Additional observations from a re-analysis of the deposited data

How the results depend on the processing

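No paired analysis was possible because no value per replicate is given beside the positions, and for the same reason no replicate could be left out and no stricter threshold applied. The counts of regions moved as follows. The lost regions at the receptors fell from 1 to 0 with a window of 50 kb, in the gene body only, within 2.5 kb of the 5′ end, and when the nearest protein-coding 5′ end had to be the member's, and rose to 2 with a window of 200 kb. The gained regions at the receptors were 1 within 2.5 kb. The lost regions at the ligands were 0 within 2.5 kb and under the nearest 5′ end, and the gained regions at the ligands were 0 within 2.5 kb and 3 with 200 kb. The nearest 5′ end was sought among the outermost starts of genes, and that of ENSG00000286131 was 322476 bp from the NRG1 region. The start of the representative NRG1 transcript, 224710 bp from the centre of the region, was not used for this. With each member left out in turn, the receptors had 0 to 1 lost and 2 to 6 gained regions, the ligands 0 to 1 lost and 1 to 1 gained, and the difference in lost share ranged from -50 to 14.3 percentage points, the last without NRG1, which reversed it. The difference was -2.78 points with 200 kb and 0 under the nearest 5′ end, and had no value within 2.5 kb, where the ligands had no region. Transcript 5′ ends, region centres, merging and runs left each count within 1.5 times. By gene, the gained regions of ERBB2 and AREG and the lost region of ERBB3 each fell from 1 to 0 with 50 kb. With 200 kb, ERBB3, HBEGF and BTC each had 1 gained region, and ERBB3 had 2 lost ones. The share of protein-coding genes with a lost region was 14% with 50 kb and 34.9% with 200 kb, and that with a gained region 20.7% with 50 kb and 46.3% with 200 kb. Motifs per kb of whole region kept the direction of all 6 differences. The depth behind each region is unknown.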
